A study of Homo sapiens with 4 samples.

Results

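Named antisense RNAs were followed in a myelodysplastic cell line and its resistant derivative, with and without 5-azacytidine (AZA). Genes were taken from the array design where the gene name ends in -AS and a digit, with names that begin with HOX left out. This rule gave 936 genes, read by 1554 probes, of 43311 gene names on the array. Of these, 334 genes had signal well above background on at least 1 of the 4 arrays, by the scanner software's own flag, and these 334 are described here. The other 602 were above background on no array.

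MDS-L is a cell line derived from myelodysplastic syndrome, and MDS-L/CDA is its AZA-resistant derivative, made by transducing CDA, the cytidine deaminase that inactivates cytidine analogues such as AZA. Over 72 h each line was kept in AZA at 1 μM or in its vehicle, 0.1% DMSO, and RNA of each of the 4 conditions was hybridized to 1 one-colour array. The dose reads 1 mM in the sample titles, and 1 treatment field names the opposite treatment for the MDS-L AZA and MDS-L/CDA vehicle arrays, whereas title, source name and description of both arrays give the groups used here. The only CDA probe stayed at background on all 4 arrays, so it did not show the transduced gene in MDS-L/CDA. With 1 array per condition no difference has a replicate check, so no test was made.

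An antisense gene is transcribed from the DNA strand opposite to a protein-coding gene, the sense gene, after which it is named. The RNAs are mostly noncoding. Some overlap the body of the sense gene and others run away from its promoter, an arrangement called head to head, and individual antisense RNAs are known to silence or to favour transcription of their neighbour. AZA is incorporated into nucleic acids and lowers methylation of cytosine in CG dinucleotides, which silences promoters, so antisense RNAs that start in CG-rich DNA are of interest after AZA.

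Signals are given as multiples of the 75th percentile of their array, so that a signal of 1 is that of the array's 75th percentile probe. They depend on the probe and rank no gene against another. Every series of 4 values below lists vehicle and AZA of MDS-L, then vehicle and AZA of MDS-L/CDA. The 75th percentile itself was 52.5, 52.9, 40.8 and 37.3 intensity units, and the lowest signal well above background was 0.19, 0.19, 0.27 and 0.30 of it. DNMT1, the DNA methyltransferase bound by AZA, read 8.46, 6.76, 8.96 and 9.98. The floor therefore lay higher on the MDS-L/CDA arrays, and fewer antisense genes stood above it there, 254 and 249 against 284 and 303. Among all probes, 35.15%, 36.54%, 32.58% and 32.64% stood above background on the 4 arrays. Spots of the same probe varied with an SD of 0.18 to 0.29 on the log2 scale, which gives a technical SD of 0.28 for a log2 ratio in MDS-L and 0.38 in MDS-L/CDA. Most probes behind these SDs were bright. Among the few with signals up to 1, the spots varied by 0.29 to 0.55, and this spread covers neither hybridization nor culture.

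A gene was called higher or lower where its ratio was at least 2-fold. Where a signal was not well above background, the higher of that signal and the array's floor stood in for it, and the ratio became a bound, written as at least N-fold. No ratio was formed where both signals lay below background, and a gene with a ratio or a bound is called measured below. Where a gene had several probes, the brightest was used.

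The cells were checked against markers. Of 6 myeloid progenitor markers, CD34, KIT, CD33, ANPEP and PTPRC were above background on all 4 arrays and MPO on none. Of 3 fibroblast markers none was above background anywhere. Of the B cell markers, CD79A was above background on all 4 arrays, with signals of 14.03, 10.69, 15.75 and 15.23, and MS4A1 on none. Of 3 T cell markers, CD3D and CD2 stood above background in MDS-L AZA, CD2 also in MDS-L/CDA AZA, and CD3E on no array. The summed T cell signal was 0.44, 5.80, 0.41 and 0.67. KIT, the stem cell factor receptor, read 0.50, 23.8, 0.35 and 1.24. These markers moved with AZA in MDS-L together with the antisense genes below, and their part in those results was not tested. In such bulk RNA, fewer cells of a type and less RNA per cell cannot be told apart.

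Across the 4 arrays 216 antisense genes were above background on every array. A further 33 were seen in MDS-L AZA only and 14 in MDS-L vehicle only, whereas 2 were seen only in MDS-L/CDA vehicle and 2 only in MDS-L/CDA AZA. Genes entered the set by signal on any array, and the same counts over all genes were not made. These counts therefore describe the set only. The brightest probe of 1 gene, SPAG5-AS1, was above background on no array, and this gene entered the set through another probe. On the current RefSeq list 333 of the 334 genes were found, 65 of them under another name. A number of those are now named as divergent transcripts (IBA57-DT, FLVCR1-DT, ZNF582-DT), and TOPORS-AS1 is now SMIM27. The array's own descriptions place 57 of the genes head to head with the sense gene. For 330 genes the sense gene was on the array as well, and in 329 of these pairs the probes read opposite strands, at a median distance of 24.7 kb.

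Antisense genes with the largest signals over the 4 arrays did not change 2-fold in any comparison. EPB41L4A-AS1, a host of small nucleolar RNA, read 152, 135, 140 and 144. NCBP2-AS2 read 78.2, 45.4, 59.5 and 80.5, and MAPKAPK5-AS1 read 57.9, 50.8, 50.0 and 51.2. NCBP2-AS2 was thus lower with AZA in MDS-L and not in MDS-L/CDA, while EPB41L4A-AS1 and MAPKAPK5-AS1 varied less. PRKCQ-AS1 and FOXP4-AS1 gave AZA/vehicle ratios of 0.77 and 0.60 in MDS-L and of 0.71 and 0.73 in MDS-L/CDA. Their next probes gave 0.95 and 0.64 in MDS-L and 1.17 and 0.83 in MDS-L/CDA, so PRKCQ-AS1 in MDS-L/CDA lay on opposite sides of 1 by its probes.

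The question put to these arrays was which genes respond to AZA in sensitive MDS-L cells and not in resistant MDS-L/CDA cells. In MDS-L, AZA raised 25 of 328 measured antisense genes at least 2-fold and lowered 14. This is 7.62% higher and 4.27% lower, beside 6.73% higher and 6.03% lower among all 17172 genes measured on these arrays. The median log2 ratio of the antisense genes was -0.02, beside -0.13 for all genes, and 158 lay above 1 and 168 below. The share called higher was near that of all genes, so the antisense genes as a set did not stand out by it. The split of increases and decreases moved with the scaling of the arrays, and that of all genes moved as well. It was 6 and 69 where arrays were scaled to their medians, beside 563 and 4328 of all 17172 genes. This scaling shifted all genes by -0.54 on the log2 scale. Only 32.58% to 36.54% of probes stood above background on an array, so most probes behind its median did not. With the percentile taken over detected probes the split was 36 and 10, beside 1554 and 646. It was 20 and 18 after quantile normalization, beside 1109 and 1007. The authors' value table also gave 20 and 18, beside 1080 and 956 of 16445 genes. Of the 25 increases, 14 were measured on both arrays and 11 are bounds from a vehicle signal below background. Of the 14 decreases, 10 were measured on both arrays.

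**Figure D1:**
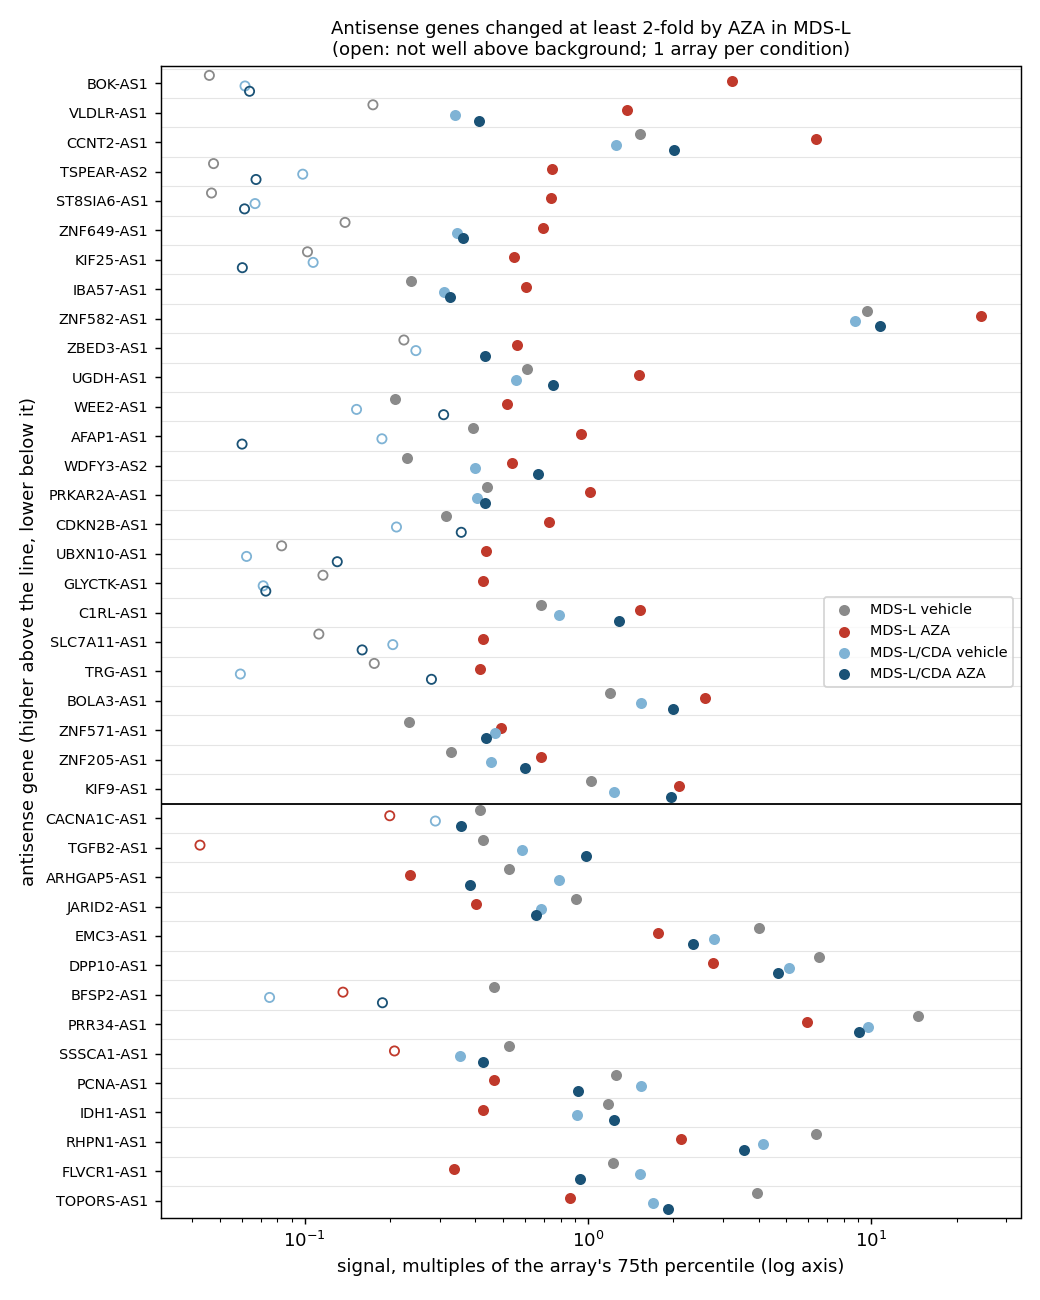
Signals of the 39 antisense genes changed at least 2-fold by AZA in MDS-L, in multiples of the array's 75th percentile on a log axis, with 1 point per array and open points for signals not well above background. For the 25 genes above the line the MDS-L AZA point lies to the right of the MDS-L vehicle point, and for the 14 below the line it lies to the left, while the MDS-L/CDA points of a gene mostly lie close to each other.

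The 2 largest increases came from a vehicle signal below background. The probes that read the 3 largest are printed here, in lower case and 5′ to 3′, since each result rests on a 60-base probe.
BOK-AS1 probe, hg19 chr2:242484047-242484106, minus strand: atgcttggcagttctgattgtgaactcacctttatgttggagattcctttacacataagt
VLDLR-AS1 probe, hg19 chr9:2536362-2536421, minus strand: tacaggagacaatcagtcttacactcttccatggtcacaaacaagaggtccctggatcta
CCNT2-AS1 probe, hg19 chr2:135625090-135625149, minus strand: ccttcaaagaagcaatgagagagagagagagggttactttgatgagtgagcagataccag
BOK-AS1, antisense to the BCL2 family member BOK, gave 0.05, 3.23, 0.06 and 0.06. It was seen in MDS-L AZA alone, at least 17.0-fold above vehicle, and BOK itself gave a ratio of 1.12. VLDLR-AS1, antisense to the very low density lipoprotein receptor, gave 0.17, 1.37, 0.34 and 0.41, at least 7.22-fold higher in MDS-L and 1.21 in MDS-L/CDA. VLDLR gave ratios of 1.82 and 1.23 in the same lines. CCNT2-AS1, antisense to cyclin T2 of the elongation factor P-TEFb, gave 1.53, 6.39, 1.26 and 2.01. Its ratio of 4.18 in MDS-L was the largest among genes above background on both arrays, and its ratio in MDS-L/CDA was 1.596. Its dimmer probe was not above background on any array.

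Another 3 genes were above background in MDS-L AZA only. TSPEAR-AS2 rose at least 3.92-fold, ST8SIA6-AS1 at least 3.90-fold and KIF25-AS1 at least 2.88-fold, with MDS-L/CDA signals of at most 0.11. KIF25, which encodes a kinesin, was likewise seen in MDS-L AZA only, at 0.65, at least 3.44-fold above vehicle. ST8SIA6, a sialyltransferase, gave a ratio of 1.73. UBXN10-AS1, GLYCTK-AS1, SLC7A11-AS1 and TRG-AS1, the last from the T cell receptor gamma locus, also appeared in MDS-L AZA alone, with bounds of 2.30, 2.24, 2.23 and 2.20. Other probes of KIF25-AS1, SLC7A11-AS1 and TRG-AS1 were above background on no array.

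Among brighter genes ZNF582-AS1, which runs head to head with a zinc finger gene, gave 9.67, 24.5, 8.77 and 10.74. The MDS-L AZA signal stood apart from the other 3, with a ratio of 2.53 in MDS-L and 1.23 in MDS-L/CDA. Its dimmer probe gave 2.82 and 1.25, so both probes showed the same pattern. UGDH-AS1, antisense to UDP-glucose dehydrogenase, gave 0.61, 1.52, 0.56 and 0.75, with ratios of 2.50 and 1.35. IBA57-AS1, head to head with a gene for iron-sulfur cluster assembly, gave 0.24, 0.60, 0.31 and 0.33, with ratios of 2.54 and 1.06. In both, MDS-L AZA was again the highest of the 4 arrays.

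C1RL-AS1, antisense to a C1r-like protease, was raised in 3 of its 4 probes. They gave ratios of 2.24, 2.37 and 2.86 in MDS-L and of 1.63, 1.86 and at least 3.06 in MDS-L/CDA. BOLA3-AS1 was called from its brightest probe at 2.17, whereas its next probe gave 0.96.

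The probes of genes that fell are shown for FLVCR1-AS1, which lies head to head with a heme exporter gene, and for IDH1-AS1, antisense to isocitrate dehydrogenase 1.
FLVCR1-AS1 probe, hg19 chr1:213031201-213031260, minus strand: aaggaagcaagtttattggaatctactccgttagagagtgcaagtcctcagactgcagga
IDH1-AS1 probe, hg19 chr2:209120795-209120854, plus strand: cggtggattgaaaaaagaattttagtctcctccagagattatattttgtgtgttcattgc
FLVCR1-AS1 gave 1.23, 0.34, 1.53 and 0.94. It fell to 0.27 of vehicle in MDS-L, the second lowest ratio, and to 0.61 in MDS-L/CDA, short of the 2-fold limit. FLVCR1 itself gave 0.50 and 1.06. The 0.50 is rounded and lay just short of the limit, so FLVCR1 was lower in MDS-L but not called. IDH1-AS1 gave 1.18, 0.42, 0.91 and 1.24, with ratios of 0.36 and 1.36. IDH1 fell with it in MDS-L, at 26.3 and 8.54, a ratio of 0.32, and gave 0.58 in MDS-L/CDA.

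The lowest ratio belonged to TOPORS-AS1, which gave 3.94, 0.86, 1.69 and 1.91. It was 0.22 in MDS-L and 1.13 in MDS-L/CDA, and TOPORS, a ubiquitin and SUMO ligase, gave 1.28 and 1.22. The MDS-L vehicle signal was the highest of the 4, since MDS-L/CDA vehicle already lay at 0.43 of it. The other probe of TOPORS-AS1 was above background on no array. RHPN1-AS1 gave 6.41, 2.14, 4.15 and 3.54, with ratios of 0.33 and 0.85, and PRR34-AS1 gave 14.7, 5.94, 9.71 and 9.08, with 0.41 and 0.94. A dimmer probe of PRR34-AS1 gave 0.46 and 0.80. In both genes the MDS-L AZA signal was the lowest of the 4.

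PCNA-AS1, antisense to the sliding clamp of DNA replication, gave 1.25, 0.46, 1.54 and 0.92. It was lower with AZA in both lines, at 0.37 in MDS-L and 0.60 in MDS-L/CDA, and PCNA gave 0.63 and 0.68. DPP10-AS1 gave 6.54, 2.76, 5.14 and 4.67, a ratio of 0.42 in MDS-L, where DPP10 gave 0.49. EMC3-AS1 and JARID2-AS1, the latter antisense to a cofactor of Polycomb repressive complex 2, gave 0.44 and 0.45 in MDS-L and 0.84 and 0.96 in MDS-L/CDA. SSSCA1-AS1, BFSP2-AS1, TGFB2-AS1 and CACNA1C-AS1 fell below background in MDS-L AZA, by at least 2.55-fold, 2.45-fold, 2.23-fold and 2.08-fold.

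ARHGAP5-AS1 was the only gene called in the same direction in both lines. It gave 0.52, 0.23, 0.79 and 0.38, with ratios of 0.45 and 0.48. ARHGAP5, a GTPase-activating protein, gave 0.59 and 0.71.

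**Figure D2:**
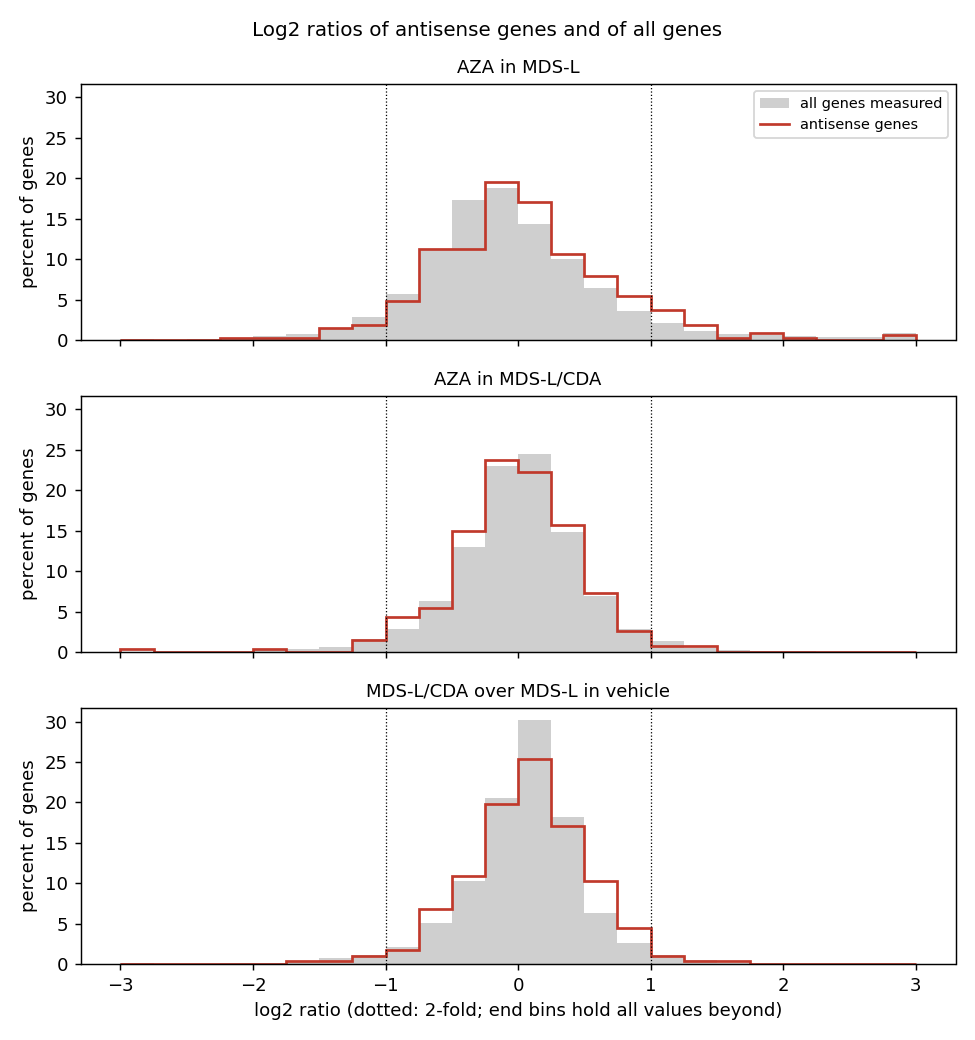
Log2 ratios of the antisense genes (red outline) and of all genes measured (grey) in 3 comparisons, as percent of genes in bins of 0.25, with dotted lines at 2-fold. The outlines follow the grey areas closely, with medians of -0.02 against -0.13 in MDS-L, -0.01 against 0.02 in MDS-L/CDA and 0.07 against 0.06 between the vehicle arrays.

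In MDS-L/CDA, AZA raised 4 of 274 measured antisense genes and lowered 6, which is 1.46% and 2.19%, beside 2.53% higher and 3.07% lower among all 15393 genes measured. Without scaling between the arrays the split was 2 and 11, beside 269 and 660 of all 15393 genes. RAB11B-AS1, antisense to a GTPase of recycling endosomes, gave 9.53, 7.21, 3.19 and 8.09. The MDS-L/CDA vehicle signal stood below the other 3, so the ratio was 2.54 with AZA in MDS-L/CDA and 0.33 between the vehicle arrays of the lines. IL10RB-AS1, head to head with a cytokine receptor chain, gave 1.22, 1.29, 0.82 and 2.02, with ratios of 1.06 in MDS-L and 2.45 in MDS-L/CDA. LEF1-AS1, antisense to a lymphoid transcription factor of the Wnt pathway, gave 0.89, 0.67, 0.65 and 1.37, with 0.75 and 2.09. GTSE1-AS1 rose at least 2.04-fold in MDS-L/CDA and gave 0.99 in MDS-L.

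Of the 6 decreases in MDS-L/CDA, 4 fell below the array's floor. ZNF436-AS1 gave 1.61, 1.03, 2.05 and 0.23, at least 6.94-fold lower with AZA in MDS-L/CDA and 0.64 in MDS-L. Its other probe was above background on no array. DDX11-AS1, antisense to a DNA helicase, gave 0.77, 0.49, 1.13 and 0.15, at least 3.83-fold lower and 0.63. For these genes the MDS-L/CDA AZA signal was the lowest of the 4. PAN3-AS1 and COX10-AS1 were at least 2.04-fold and 2.03-fold lower. SHANK2-AS3 gave 0.47 and ARHGAP5-AS1 0.48.

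The line comparison without AZA shares its vehicle arrays with the comparisons above. Of 292 measured antisense genes, 5 were higher in MDS-L/CDA and 5 lower, 1.71% each way, beside 1.97% higher and 2.64% lower among all 16015 genes. The split was 0 and 31 with arrays scaled to their medians, 1 and 17 without scaling and 4 and 8 with the percentile over detected probes. Over all 16015 genes these splits were 59 and 1693, 90 and 1093, and 243 and 518. NR2F2-AS1 and HIF1A-AS1, antisense to a nuclear receptor and to the oxygen-regulated factor HIF1A, were at least 2.86-fold and 2.47-fold higher. Each rests on its brightest probe. No other probe of NR2F2-AS1 gave a ratio between the lines, and the other probe of HIF1A-AS1 was above background on no array. A2M-AS1 gave 0.71, 0.70, 1.57 and 1.63, so both MDS-L/CDA arrays lay above both MDS-L arrays, and its dimmer probe read 0.29, 0.27, 0.57 and 0.61. KCNIP2-AS1 and ZNF571-AS1 gave 2.15 and 2.01. Lower in MDS-L/CDA besides RAB11B-AS1 and TOPORS-AS1 were SEPSECS-AS1 (0.38, MDS-L/CDA signal below background), ZNF790-AS1 and ZNF503-AS2. ZNF503-AS2 was above background on both MDS-L arrays and on neither MDS-L/CDA array, and ZNF503, a zinc finger repressor, gave 7.47, 9.52, 0.84 and 1.41, a ratio of 0.11 between the vehicle arrays.

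The 2 responses to AZA share no array and could be set side by side. Among the 216 antisense genes above background on all 4 arrays, 11 rose and 10 fell at least 2-fold in MDS-L, and 3 rose and 2 fell in MDS-L/CDA. This is 5.09% and 4.63% in MDS-L and 1.39% and 0.926% in MDS-L/CDA, beside 3.74% higher and 6.03% lower and 1.98% higher and 2.82% lower among all 13962 genes above background on every array. The log2 ratios of the antisense genes had an SD of 0.60 in MDS-L and 0.41 in MDS-L/CDA, beside 0.63 and 0.47 for all these genes. The technical SD was 0.28 and 0.38. The lines were weakly correlated, with a Pearson r of 0.25 and a Spearman coefficient of 0.20 across these 216 genes, which are not independent replicates and share the 4 arrays. Of the 25 genes called higher in MDS-L, 11 were below background on both MDS-L/CDA arrays and 14 could be measured there. None of the 14 was called in MDS-L/CDA, yet 13 lay above 1, with a median ratio of 1.30 and a range of 0.93 to 1.67. Of the 14 called lower, 13 were measured in MDS-L/CDA, 8 of them below 1, with a median ratio of 0.94. The same counts over all genes called in MDS-L were not made, so these counts are not particular to antisense genes. That a gene was called in 1 line and not in the other does not show that the lines differ, and no test of that difference was possible.

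**Figure D3:**
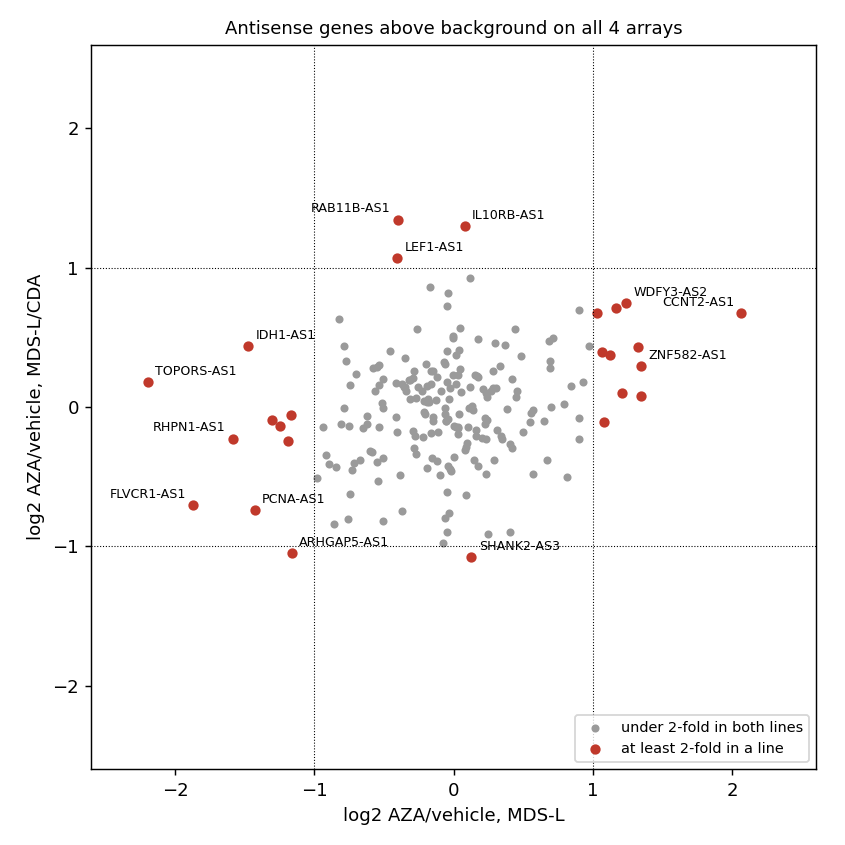
Log2 AZA/vehicle ratios in MDS-L (horizontal) and MDS-L/CDA (vertical) of the 216 antisense genes above background on all 4 arrays, with dotted lines at 2-fold. The points spread more widely along the MDS-L axis (SD 0.60) than along the MDS-L/CDA axis (SD 0.41), and ARHGAP5-AS1 alone is past 2-fold in both.

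The sense genes served as reference. In MDS-L, 13 of 257 measured sense genes rose and 14 fell, 5.06% and 5.45%, and their median log2 ratio was -0.20. In the 256 pairs with a ratio or a bound for both genes, the antisense ratio was higher than the sense ratio by a median of 0.19 on the log2 scale, with quartiles of -0.26 and 0.67. The median was 0.18 with both genes above background on both arrays, 0.20 with arrays scaled to their medians and 0.19 without scaling, but 0.02 after quantile normalization and 0.01 in the value table. In MDS-L/CDA the median difference was 0.03 over 207 pairs. Among the 192 pairs in MDS-L and the 169 in MDS-L/CDA with both genes above background on both arrays, the responses of the genes of a pair were weakly related, with a Pearson r of 0.16 in MDS-L and 0.17 in MDS-L/CDA across pairs, and the same sign in 51.0% and 57.4% of pairs. Pairs are not independent replicates and share the arrays.

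Most called antisense genes had a sense gene that was not called, as did most pairs. The sense gene was called in 26 of all 256 pairs with a ratio or a bound for both genes in MDS-L. In MDS-L, 38 called antisense genes had their sense gene on the array, and for 8 of them the sense gene was below background on both arrays. Of the other 30, 23 had a sense gene that changed less than 2-fold, 6 had one called in the same direction and 1 had one called in the opposite direction. The pairs that moved together were C1RL-AS1, KIF25-AS1, SLC7A11-AS1 and WDFY3-AS2, which rose, and DPP10-AS1 and IDH1-AS1, which fell. WDFY3-AS2 gave 0.23, 0.54, 0.40 and 0.67, and WDFY3, an autophagy adaptor, gave 2.17, 5.87, 3.37 and 6.51. Both were higher with AZA in each line, by 2.36 and 2.70 in MDS-L and by 1.67 and 1.94 in MDS-L/CDA. SLC7A11, the cystine/glutamate antiporter, gave 9.92, 23.8, 11.4 and 8.44, a ratio of 2.40 in MDS-L and 0.74 in MDS-L/CDA. The opposite pair was ZNF649-AS1, which rose at least 3.64-fold from 0.14 to 0.69, while ZNF649 fell from 0.86 to 0.39, a ratio of 0.46. In MDS-L/CDA this pair gave 1.04 and 1.097.

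The reverse also occurred. In MDS-L, 19 antisense genes that were measured and not called had a called sense gene. The most extreme on either side, chosen after the values were seen, were ALOX12-AS1 and RBM26-AS1. ALOX12, an arachidonate lipoxygenase, was seen in MDS-L AZA alone, at 0.05, 1.73, 0.07 and 0.07, at least 9.13-fold above vehicle. ALOX12-AS1 gave 1.41, 1.43, 1.53 and 1.38, with ratios of 1.02 in MDS-L and 0.90 in MDS-L/CDA, and its other probe gave 0.96 and 0.95. The 4 signals of ALOX12-AS1 thus stayed level while the sense gene appeared in 1 of the 4 conditions. RBM26, which encodes an RNA-binding protein, fell to 0.25 of vehicle in MDS-L, and RBM26-AS1 gave 1.26 by its brightest probe and 2.55 by the next.

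**Figure D4:**
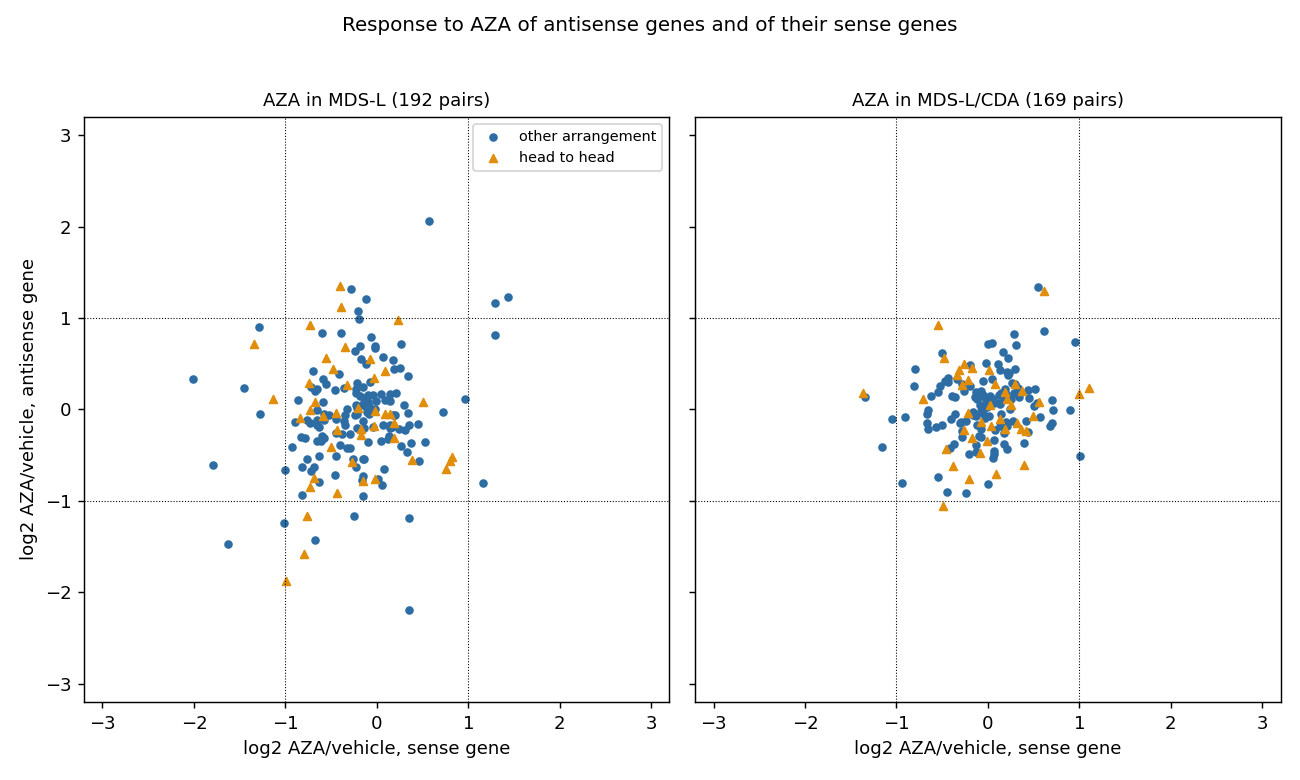
Log2 AZA/vehicle ratio of each antisense gene (vertical) against that of its sense gene (horizontal) in MDS-L (192 pairs) and MDS-L/CDA (169 pairs), with head to head pairs as triangles and dotted lines at 2-fold. The points form a round cloud in both panels, with Pearson r of 0.16 and 0.17.

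Head to head genes start next to the promoter of their sense gene. In MDS-L, 3 of 57 measured head to head genes rose and 5 fell, 5.26% and 8.77%, beside 6.73% and 6.03% of all genes, and 22 and 9 of the 271 in another arrangement, 8.12% and 3.32%. Their median log2 ratio was -0.07, and that of the others 0.00. The correlation between antisense and sense responses was -0.02 over 44 head to head pairs and 0.21 over 148 other pairs in MDS-L. In MDS-L/CDA it was 0.06 over 41 and 0.21 over 128. The correlation was thus lower in head to head pairs in both lines, which is a description without a test.

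Promoters were read from the RefSeq table of GRCh38.p14, 250 bases before to 50 bases after the start of each gene, which held 266 of the antisense genes. CG dinucleotides were counted on this window. CG is its own reverse complement, so the strand does not matter. The antisense promoters held a median of 25 CG, beside 14 over all 27305 promoters of the table. Of them 79.0% held 10 or more, beside 56.0% of all. The antisense genes had passed the filter on signal and the table's genes had not, so these values do not compare like with like. Some windows also touch another gene, such as the sense gene. Head to head genes had a median of 32.5, and 97.9% held 10 or more. Genes that rose in MDS-L had a median of 25.5 (22 promoters), genes that fell 26 (13 promoters) and measured genes that were not called 25 (228 promoters). The 9 that rose from below background had a median of 10. Methylation was not measured on these arrays, and the counts describe the DNA only.

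Promoter windows of 4 genes that touch no other gene of the RefSeq table are printed to show this range of CG content, with CG in capitals. UGDH-AS1 (28 CG) and KIF25-AS1 (12 CG) rose in MDS-L, ARHGAP5-AS1 (28 CG) fell in both lines, and LEF1-AS1 (25 CG) rose in MDS-L/CDA.
UGDH-AS1 promoter, GRCh38.p14 chr4:39527589-39527888, plus strand: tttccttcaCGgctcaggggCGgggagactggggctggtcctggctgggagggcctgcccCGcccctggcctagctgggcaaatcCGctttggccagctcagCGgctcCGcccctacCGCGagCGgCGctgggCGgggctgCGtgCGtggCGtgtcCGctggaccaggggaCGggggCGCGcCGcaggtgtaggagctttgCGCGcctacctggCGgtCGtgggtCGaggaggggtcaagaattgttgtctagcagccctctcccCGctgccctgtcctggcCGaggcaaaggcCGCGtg
KIF25-AS1 promoter, GRCh38.p14 chr6:167997028-167997327, minus strand: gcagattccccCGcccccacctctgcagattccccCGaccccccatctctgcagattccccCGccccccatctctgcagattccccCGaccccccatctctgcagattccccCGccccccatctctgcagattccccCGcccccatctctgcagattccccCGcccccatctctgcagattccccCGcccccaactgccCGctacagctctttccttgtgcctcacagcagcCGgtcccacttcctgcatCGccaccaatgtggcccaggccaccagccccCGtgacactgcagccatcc
ARHGAP5-AS1 promoter, GRCh38.p14 chr14:32076650-32076949, minus strand: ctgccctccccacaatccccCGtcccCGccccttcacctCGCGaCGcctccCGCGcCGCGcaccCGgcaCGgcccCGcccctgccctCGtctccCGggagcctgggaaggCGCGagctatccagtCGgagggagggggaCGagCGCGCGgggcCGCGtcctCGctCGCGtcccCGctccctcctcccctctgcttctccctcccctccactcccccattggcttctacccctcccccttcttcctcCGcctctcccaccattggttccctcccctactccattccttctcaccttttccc
LEF1-AS1 promoter, GRCh38.p14 chr4:108171870-108172169, plus strand: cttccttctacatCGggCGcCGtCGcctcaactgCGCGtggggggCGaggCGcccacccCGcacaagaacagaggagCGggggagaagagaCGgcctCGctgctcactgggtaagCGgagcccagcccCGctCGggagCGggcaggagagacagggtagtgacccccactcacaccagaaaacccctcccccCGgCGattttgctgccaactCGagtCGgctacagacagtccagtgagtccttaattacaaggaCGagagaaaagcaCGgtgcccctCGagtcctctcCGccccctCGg
Much of the KIF25-AS1 window is a short tandem repeat with isolated CG.

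Antisense genes were also grouped by what is known of them. Of all genes measured, 6.73% were called higher and 6.03% lower in MDS-L, and 2.53% and 3.07% in MDS-L/CDA. Of 15 antisense genes of imprinted loci, 4 were on the array and none was above background. Of the genes antisense to blood-cell genes, 6 were members, and none was called in MDS-L from its brightest probe. GATA2-AS1, antisense to a transcription factor of stem and progenitor cells, gave 7.15, 12.6, 5.99 and 4.22, ratios of 1.76 in MDS-L and 0.70 in MDS-L/CDA, and GATA2 gave 2.46 and 2.01. The next probe of GATA2-AS1 gave 2.59 and 1.76, past 2-fold in MDS-L and in the opposite direction in MDS-L/CDA. CEBPA-AS1, beside the granulocytic factor CEBPA, gave 6.99, 3.88, 10.6 and 7.86, ratios of 0.56 and 0.74, and its next probe 0.40 and 0.71. IL10RB-AS1 and LEF1-AS1, the genes of this group called in MDS-L/CDA, are described above. The median log2 ratio of the group was -0.06 in MDS-L. In MDS-L/CDA it was 0.31, the value of ARRDC1-AS1, whose sense gene is no blood-cell gene.

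Of genes antisense to developmental transcription factors 9 were members. In MDS-L 1 of 8 measured rose and none fell, beside 6.73% and 6.03% of all genes. That gene was ST8SIA6-AS1, whose sense gene is a sialyltransferase and not a transcription factor. PAX8-AS1 gave 16.6, 15.7, 17.4 and 8.86, a ratio of 0.95 in MDS-L and 0.51 in MDS-L/CDA, whereas its next probe gave 0.995 and 1.44. FOXD3-AS1 gave 8.30, 9.74, 14.8 and 10.6, with 1.17 and 0.72.

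The largest group held 31 widely expressed antisense RNAs with a described function. In MDS-L 3 of them rose and 3 fell, beside 6.73% and 6.03% of all genes, and the median log2 ratio of the group was -0.15. The increases were AFAP1-AS1 at 2.40, CDKN2B-AS1 at 2.31 and WDFY3-AS2 at 2.36, and the decreases ARHGAP5-AS1, FLVCR1-AS1 and PCNA-AS1. CDKN2B-AS1, known as ANRIL and linked to Polycomb silencing of a CDK inhibitor locus, gave 0.32, 0.73, 0.21 and 0.36. Both MDS-L/CDA signals were below background, and so was CDKN2B on the MDS-L arrays. The other probes of CDKN2B-AS1 were above background on no array. In MDS-L/CDA the group had 1 decrease, ARHGAP5-AS1, and a median of -0.14. FGD5-AS1 gave 24.8, 27.2, 31.1 and 30.6 and OIP5-AS1 3.52, 2.87, 3.998 and 3.55, by their brightest probes. Their next probes gave lower ratios in MDS-L, 0.68 and 0.65, and 1.03 and 0.64 in MDS-L/CDA.

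A further group was chosen after the values were seen, the 14 genes antisense to zinc finger genes with ZNF names. In MDS-L, 4 rose and none fell, beside 6.73% and 6.03% of all genes and 7.62% and 4.27% of the antisense genes. The same values cannot test a group chosen in this way. Those that rose were ZNF649-AS1, ZNF582-AS1, ZNF571-AS1 at 2.11 and ZNF205-AS1 at 2.09. Of the 14, 10 lay above 1, the median log2 ratio being 0.52. In MDS-L/CDA none of 12 rose, ZNF436-AS1 fell, and the median was 0.03. The shares of all genes there were 2.53% higher and 3.07% lower. Of the genes that rose, all but ZNF205-AS1 lie on chromosome 19, which carries 16 of the 334 antisense genes.

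Where a gene had a second probe above background on both arrays of a pair, the probes were compared. In MDS-L the log2 ratios of the brightest and the next probe of 87 genes had a Pearson r of 0.54 and a median absolute difference of 0.32. Of 4 called genes with such a second probe, 3 were called in the same direction by it. In MDS-L/CDA r was 0.18 over 81 genes with a median absolute difference of 0.33, and no called gene had such a second probe. The differences between probes were thus of like size in both lines, while the responses themselves were smaller in MDS-L/CDA.

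**Figure D5:**
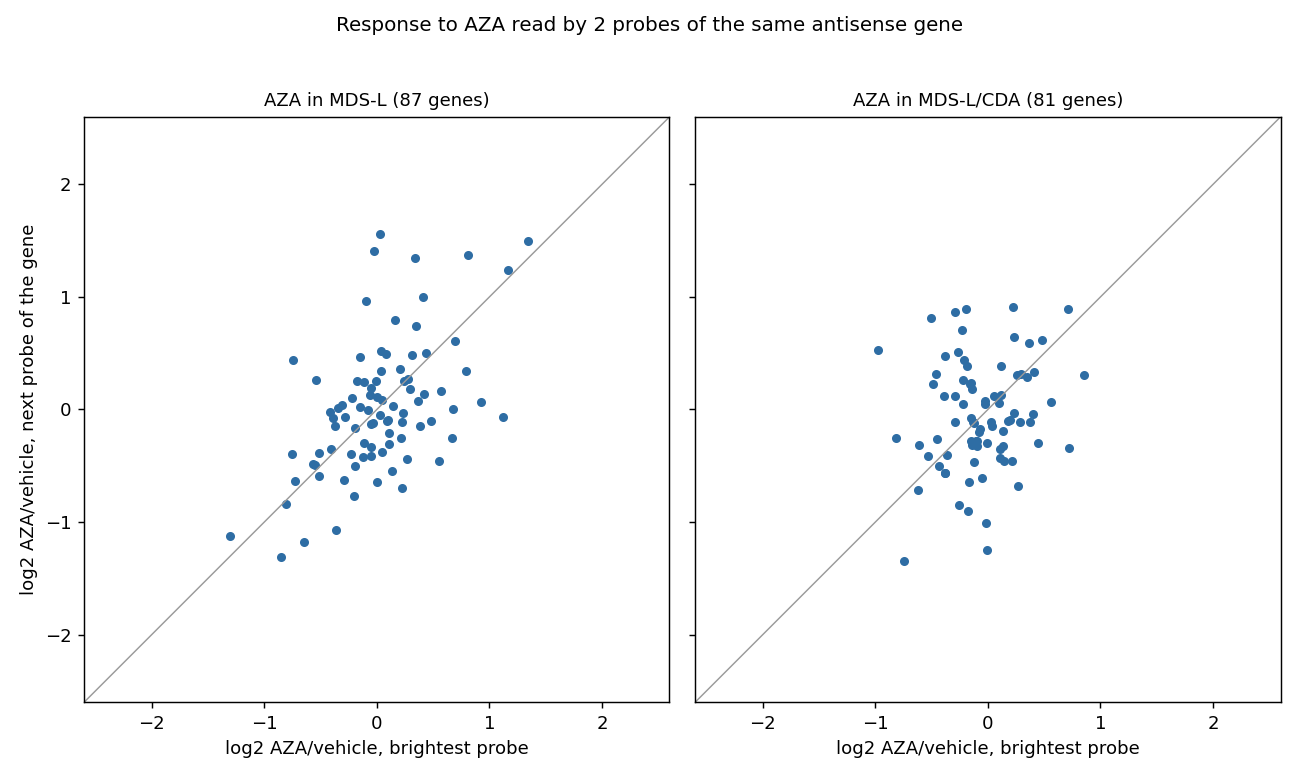
Log2 AZA/vehicle ratios from the brightest probe (horizontal) and the next probe (vertical) of the same antisense gene in MDS-L (87 genes) and MDS-L/CDA (81 genes), with the line of equal values. The points follow the line in MDS-L (r = 0.54) more than in MDS-L/CDA (r = 0.18).

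The 2-fold limit cut through a continuous range of values. In MDS-L, KIF9-AS1 (2.04) and ZNF205-AS1 (2.09) lay just inside it and SH3RF3-AS1 (1.98) and TOLLIP-AS1 (1.96) just outside. On the lower side TGFB2-AS1 and CACNA1C-AS1, with bounds of 0.45 and 0.48, lay inside and SSTR5-AS1, at 0.51, and KCNIP2-AS1, with a bound of 0.51, outside. In MDS-L/CDA, LEF1-AS1 (2.09) and GTSE1-AS1 (a bound of 2.04) lay inside, and GMDS-AS1 (1.90) and MED4-AS1 (a bound of 1.88) outside.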

How the data were processed

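RNA of 4 conditions was read on 4 one-colour Agilent arrays, 1 each. The authors deposited the scanner output of Agilent Feature Extraction 10.7.1.1, whose processed intensity is background-subtracted and linear, with no normalization between arrays, and a value table, also intensity, whose normalization is not given in the sources used here. All columns were matched to samples by their labels. After 16 of 58201 probes with outlier flags were left out, log2 intensity was averaged within probes and the array's 75th percentile subtracted. The 2-fold call follows the ratio part of the study's definition of increased genes, and its Z score, for which no formula was found, was an alternative. Antisense genes, lists and rules were chosen with earlier results of these data known. Genes named are the 8 largest called in each direction and comparison, the brightest, called members of the lists, called genes with a called sense gene, and others as examples of a list or as marked. A few items are not reported here. Probe positions are hg19 as deposited, and promoters and current names come from RefSeq on GRCh38.p14. The number of arrays limits the precision. Alternatives were 5 other scalings or backgrounds, the value table, 2 treatments of dim signals, 2 treatments of several probes, 2 other call limits and 1 signal limit added after the data were seen. Python 3.11.15, numpy 2.4.6, pandas 2.3.3, matplotlib 3.10.9, R 4.3.3 and limma 3.58.1 (normexp) were used.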

Additional observations from a re-analysis of the deposited data

Results flagged for a closer look

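TGFB2-AS1, head to head with a gene for a transforming growth factor, moved in opposite directions in the lines. It gave 0.42 and 0.04 in MDS-L vehicle and AZA, at least 2.23-fold lower, and 0.58 and 0.99 in MDS-L/CDA vehicle and AZA, a ratio of 1.69. The MDS-L AZA signal was below background and the other 3 were above it. The gene was read by 1 probe and 1 array per condition, so this difference was not tested.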

How the results depend on the processing

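For the response to AZA in MDS-L, the response in MDS-L/CDA and the lines compared in vehicle, in this order, 25, 4 and 5 antisense genes were higher and 14, 6 and 5 lower. For 44 calls, 377 ratios were computed under other scalings, backgrounds, the value table, treatments of dim signals and the mean over probes. None of these ratios passed to the other side of 1, and 272 moved by less than the technical SD. This was largely fixed beforehand and is no check of the calls. Each call was at least 2-fold, and a factor per array shifts all log2 ratios of a comparison alike, by -0.54 at the largest. Treatments of dim signals leave ratios measured on both arrays unchanged, as does the mean over probes where a gene has 1 probe. A bound that would have crossed 1 was set to 1, so it could not turn. With the mean over probes, the log2 ratio was 0 for SLC7A11-AS1 and SSSCA1-AS1 in MDS-L and for HIF1A-AS1 between the lines. Other called genes named here, such as ZNF582-AS1, UGDH-AS1 and TGFB2-AS1, were not checked in this way. The counts depended on the processing, and those of all genes are given beside them. At the main setting 1155 of all 17172 genes were higher and 1036 lower in MDS-L. The counts of all genes were 389 and 472 of 15393 in MDS-L/CDA and 316 and 423 of 16015 between the lines. With arrays scaled to their medians, 6 were higher and 69 lower in MDS-L, with a median log2 ratio of -0.56. Between the lines 0 were higher and 31 lower, with a median of -0.40. Of all genes, 563 were higher and 4328 lower in MDS-L and 59 and 1693 between the lines. Without scaling, 2 were higher and 11 lower in MDS-L/CDA, and 1 was higher and 17 lower between the lines, with a median of -0.24. Of all genes, 269 were higher and 660 lower in MDS-L/CDA and 90 and 1093 between the lines. All genes shifted by -0.54 in MDS-L and -0.50 between the lines under median scaling, and by -0.13 in MDS-L/CDA and -0.35 between the lines without scaling. Most probes behind the medians were not above background. With the percentile over detected probes 8 were lower between the lines, beside 518 of all genes. All genes shifted by 0.18 in MDS-L with it, where quantile normalization and the value table shifted them by 0.11. Normexp with its offset of 50 compresses dim ratios by construction. It gave 3 higher and 3 lower in MDS-L, 0 and 1 in MDS-L/CDA and 0 and 2 between the lines. For all genes these counts were 376 and 428, 67 and 188, and 35 and 245. Only genes above background on both arrays gave 14 higher in MDS-L, 2 lower in MDS-L/CDA and 3 higher and 2 lower between the lines. For all such genes these counts were 670 of 15104, 400 of 14137, and 230 and 315 of 14510. Computed ratios with no bound gave 45 higher in MDS-L, 9 higher and 11 lower in MDS-L/CDA and 8 higher and 9 lower between the lines. For all genes these counts were 1679, 597 and 645, and 379 and 725. The mean over a gene's probes gave 11 lower in MDS-L/CDA, beside 399 of all 15410 genes, and 8 higher between the lines, beside 314 of 16034. Counting a gene by any probe gave 7 higher and 10 lower in MDS-L/CDA and 10 higher and 9 lower between the lines. All genes were not counted in this way. A ratio of 1.5 gave 60 and 50, 26 and 27, and 35 and 20, beside 2426 and 3112, 1435 and 1477, and 1275 and 1251 of all genes. A Z score of at least 2 besides the ratio gave 8 higher and 4 lower in MDS-L, 2 and 3 in MDS-L/CDA and 1 higher between the lines. For all genes these counts were 609 and 440, 271 and 386, and 183. A signal of at least 1 on 1 array of the pair was a limit added after the data were seen. It gave 9 higher and 8 lower in MDS-L, 3 lower in MDS-L/CDA and 1 higher and 2 lower between the lines. For all genes these counts were 668 and 801 of 12372, 384 of 12134, and 163 and 329 of 12108. The median log2 ratio in MDS-L changed sign between settings, from -0.02 to 0.16 with the percentile over detected probes. With 1 array per condition no library could be left out, and the floor of 0.27 to 0.30 on the MDS-L/CDA arrays limits what can be seen there. The cause of the other changes was not tested.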
